A study of Rattus norvegicus with 36 samples.

Results

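Voltage-gated sodium and calcium channel genes were examined in 4 brain regions of rats, 6 weeks after a blast or a sham exposure. The members were the genes annotated as protein-coding whose symbol begins with Scn, a number and a or b, or with Cacna, Cacnb or Cacng. This gave 39 of the 26142 genes listed in at least 1 region, and all 39 were listed in each of the 4 region tables. They were 10 sodium channel pore genes, 4 sodium channel beta genes, 9 calcium channel pore genes, 4 alpha2delta genes, 4 calcium channel beta genes and 8 gamma genes. Cacna1i, the remaining pore gene of the low-voltage-activated calcium channels, matched by symbol but is annotated as a processed transcript in these tables, and it was left outside.

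The study profiled total RNA of dissected regions by RNA sequencing and set blast against sham within each region. The libraries were 5 blast and 5 sham of hippocampus, 5 blast and 4 sham of amygdala, 3 blast and 5 sham of anterior cortex, and 5 blast and 4 sham of cerebellum. The blast libraries carried the numbers 1, 2, 5, 6 and 9 in their titles and the sham libraries 10, 12, 13, 16 and 18, with some numbers missing in a region. The sources used here give no strain, sex, age, blast pressure or exposure count, and name no genotype or drug for either group. Whether a number stands for 1 animal is not stated either, and the p-values therefore cover the spread among libraries alone, part of which may be technical.

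Voltage-gated sodium channels open within less than a millisecond when a neuron depolarizes and carry the upstroke of the action potential. Each has a large pore-forming alpha subunit, which also senses voltage, and smaller beta subunits that tune its gating and place it in the membrane. Voltage-gated calcium channels couple the same electrical signals to transmitter release, gene expression and rhythmic firing. Their pores form the Cav1 (L-type), Cav2 (P/Q-, N- and R-type) and Cav3 (T-type) families. The alpha2delta and beta subunits bring Cav1 and Cav2 pores to the surface. Most gamma genes of the brain encode TARPs, which are auxiliary subunits of AMPA-type glutamate receptors rather than of calcium channels.

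The 4 members below had the largest differences between sham cerebellum and sham forebrain, in each direction, among those with a single RefSeq promoter entry. Shared regulation was not tested, and their upstream sequences are shown as a description. They are the 250 bases before the annotated RefSeq start on the GRCr8 build, and capitals mark a GC box (GGGCGG, or CCGCCC on the other strand).
Cacna2d2, chr8:116950856-116951105, plus strand, highest in cerebellum: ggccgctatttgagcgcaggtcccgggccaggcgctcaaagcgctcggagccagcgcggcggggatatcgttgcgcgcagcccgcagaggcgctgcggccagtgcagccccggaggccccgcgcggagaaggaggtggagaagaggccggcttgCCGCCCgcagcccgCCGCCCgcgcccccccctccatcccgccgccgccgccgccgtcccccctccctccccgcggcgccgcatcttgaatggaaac
Scn4b, chr8:54343623-54343872, plus strand, highest in cerebellum: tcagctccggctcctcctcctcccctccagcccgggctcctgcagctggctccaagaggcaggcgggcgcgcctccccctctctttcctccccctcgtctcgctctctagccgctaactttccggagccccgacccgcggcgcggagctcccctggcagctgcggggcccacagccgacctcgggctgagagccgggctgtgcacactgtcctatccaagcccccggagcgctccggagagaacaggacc
Cacng8, chr1:74691004-74691253, minus strand, lowest in cerebellum: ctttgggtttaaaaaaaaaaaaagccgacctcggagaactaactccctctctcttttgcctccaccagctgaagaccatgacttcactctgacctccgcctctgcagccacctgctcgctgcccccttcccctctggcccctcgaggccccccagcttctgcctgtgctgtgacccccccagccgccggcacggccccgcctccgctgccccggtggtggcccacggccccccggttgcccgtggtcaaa
Cacng3, chr1:186632312-186632561, plus strand, lowest in cerebellum: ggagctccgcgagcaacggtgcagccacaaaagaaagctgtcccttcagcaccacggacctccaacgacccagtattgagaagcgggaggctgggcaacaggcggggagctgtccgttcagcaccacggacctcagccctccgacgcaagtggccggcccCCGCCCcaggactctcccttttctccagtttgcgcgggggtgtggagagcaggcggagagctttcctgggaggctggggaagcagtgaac
Of the 39 members, 27 matched the RefSeq promoter table and 25 of these had a single entry. A GC box stood in 11 of those 25 promoters (44.0%), against 30.5% of all 33469 promoters of this length. The motif TATAAA was found in 2 of the 25 (Cacna1s and Cacng2) and in 12.9% of all promoters. The cAMP response element TGACGTCA was found in none of the 25 and in 1.59% of all promoters. All motifs were searched on both strands. The set of all promoters was not limited to genes with a single entry, so it is not fully like the members' set. The members' promoters had a median GC content of 59.2%, against 51.2% over all promoters, which the GC box count shares.

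Libraries held 15426786 to 23460322 counts on genes. A pair of libraries stood apart from their regions. Over the 10930 genes used to compare regions, blast 6 of hippocampus correlated at r = 0.33, across genes, with the mean sham hippocampus profile, and blast 6 of amygdala at r = 0.62 with amygdala and 0.65 with anterior cortex. The other 34 libraries correlated at 0.78 to 0.97 with their own region and resembled it most. Blast 6 of hippocampus also resembled its own region most, but narrowly, at r = 0.28 with anterior cortex. Summed over 4 of 4 markers, oligodendrocyte RNA reached 21060.0 CPM (counts scaled to library size) in blast 6 of hippocampus, and at most 8899 CPM in any sham library of that region. The choroid plexus markers (5 of 6 in this table) summed to 7938 CPM in the same library, and to at most 490.0 CPM in those sham libraries. The title of blast 6 of hippocampus carries a suffix that the labels do not explain. Blast results of these regions that shifted without them are given both ways.

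In sham rats most members were well expressed. Compared per length, as the FPKM (fragments per kilobase of gene, scaled to library size) that the authors deposited, 27 of 39 members reached 1 FPKM in cerebellum, 28 in hippocampus, 30 in amygdala and 29 in anterior cortex, beside 61.2%, 60.5%, 61.5% and 61.1% of all genes listed there. The median member level was 13.3 FPKM in cerebellum, 18.6 in hippocampus, 18.4 in amygdala and 17.9 in anterior cortex. Scn10a, Scn11a, Cacng1, Cacna1f, Cacna1s and Cacna2d4, which are best known from sensory ganglia, skeletal muscle or retina, stayed below 1 FPKM in every sham library.

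**Figure D1:**
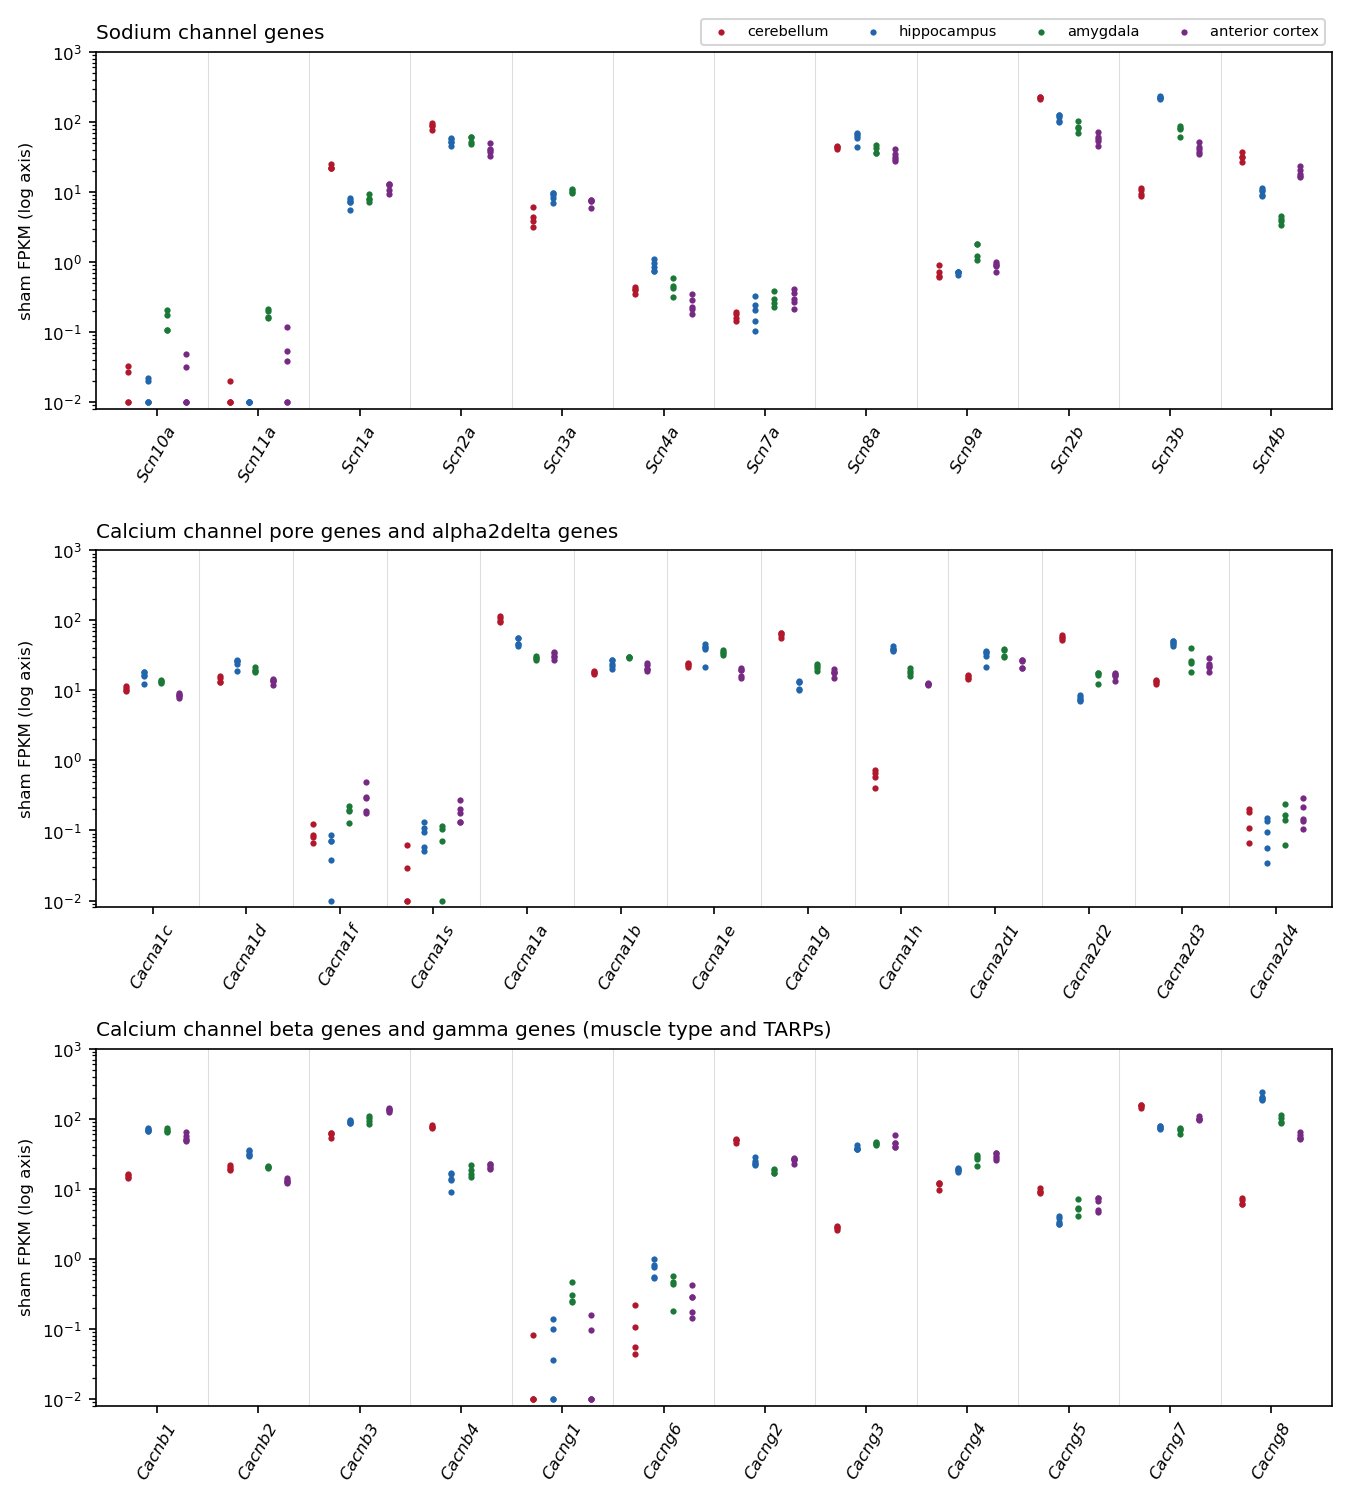
Level per length (FPKM, log axis) of 37 of the 39 channel genes in sham libraries, 1 point per library, coloured by region, in 3 panels by gene group. Values below 0.01 FPKM are drawn at 0.01. Scn3b, Cacna1h, Cacng3 and Cacng8 sit far lower in cerebellum than in the 3 forebrain regions, and Cacna2d2, Cacna1g and Cacnb4 sit higher.

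In sham rats the members' levels differed between regions, as those of most genes did. Of the 38 members that passed the filter on low counts (Cacng1 did not), 37 differed between regions by edgeR's quasi-likelihood F test at an adjusted p under 0.05, beside 81% of all genes tested, and Cacna2d4 was the exception (adjusted p = 0.224). In cerebellum against the mean of the 3 forebrain regions 32 members were called, 12 higher and 20 lower, beside 69.9% of all genes, with 34.8% higher and 35.1% lower. With a log2 fold change of at least 1 as a further condition, 8 were higher (8.98% of all genes) and 12 lower (16.2%). In hippocampus against anterior cortex 31 members were called, 15 higher and 16 lower, beside 51% of all genes, with 24.7% higher and 26.3% lower. There 6 were higher (4.4% of all genes) and 5 lower (7.72%) with a log2 fold change of at least 1 in size. In amygdala against anterior cortex 24 were called, 15 higher and 9 lower, beside 31.5% of all genes, with 15.3% higher and 16.2% lower. At that size 3 were higher (3.03%) and 2 lower (1.85%). In hippocampus against amygdala 25 were called, 15 higher and 10 lower, beside 33.2% of all genes, with 16.5% higher and 16.7% lower, and at that size 6 were higher (2.7%) and 5 lower (5.7%). These comparisons share the sham libraries, so their calls are not independent. Scn10a and Scn11a, counted among the calls, passed the filter only because of their amygdala libraries.

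The regions differ in their cell types. The 3 cerebellar granule cell markers summed to 2202 to 2358 CPM in sham cerebellum, against 41.3 to 50.2 in hippocampus, 29.3 to 41.9 in amygdala and 23.6 to 33.65 in anterior cortex. The 2 Purkinje cell markers in the tables, of 3 in the list, summed to 834.5 to 978 CPM in sham cerebellum and to at most 148.5 CPM in the sham forebrain. The 4 forebrain markers summed to 29.1 to 33.8 CPM in sham cerebellum, against 221 to 464 CPM in the sham forebrain. In such bulk tissue, more cells of a type and more RNA per cell cannot be told apart, and the part of cell composition in the members' differences was not tested.

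**Figure D2:**
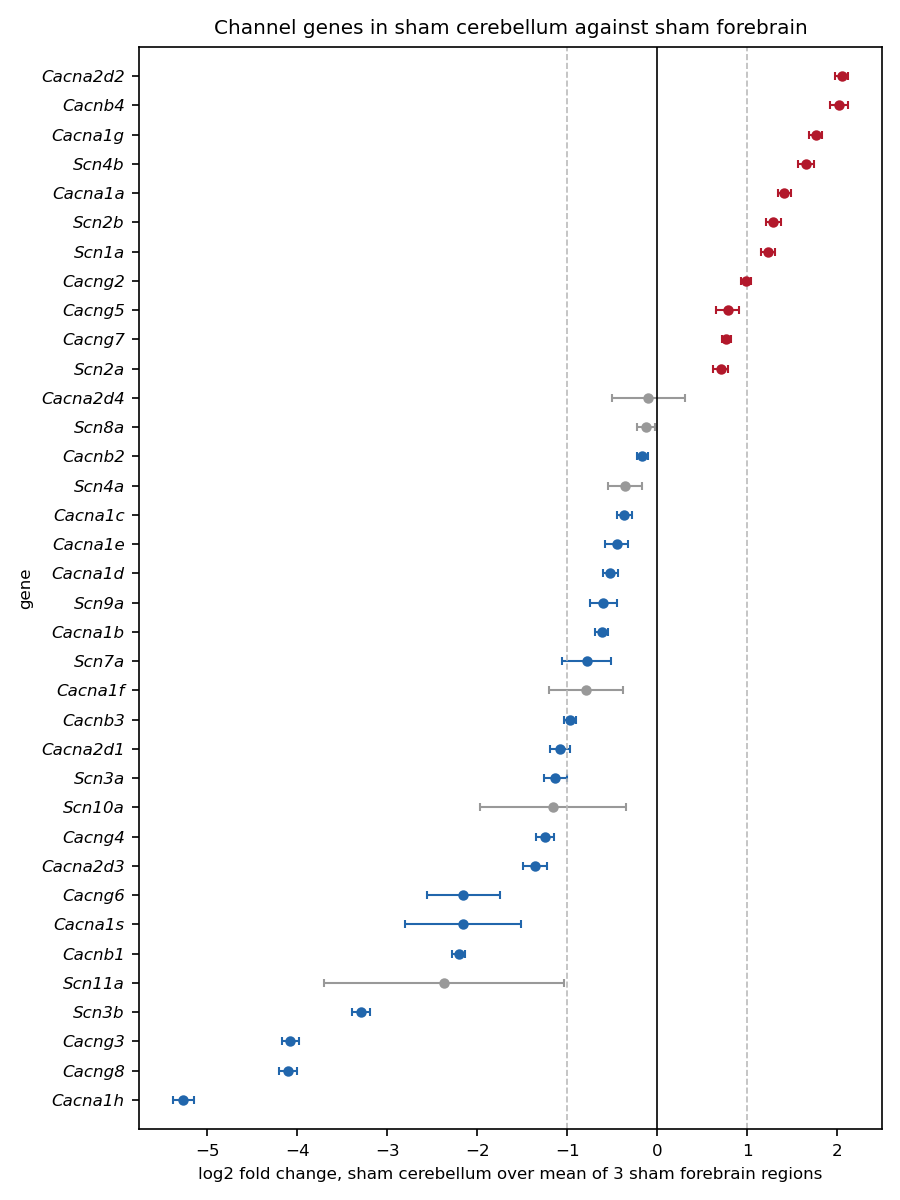
Log2 fold change of sham cerebellum over the mean of the 3 sham forebrain regions for 36 of the 38 channel genes tested, with whiskers of 1 standard error. Red points were called higher and blue points called lower at an adjusted p under 0.05, grey points were not called, and dashed lines mark a log2 fold change of -1 and 1. Cacna1h and Cacng8 lie lowest and Cacna2d2 and Cacnb4 highest.

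Among the sodium channel pore genes, Scn2a and Scn8a, which encode the channels of the axon initial segment in excitatory neurons, gave most of the RNA everywhere. Scn2a made up 54.9% of the summed FPKM of the 10 genes in cerebellum and 46.2% in amygdala, whereas Scn8a led in hippocampus with 46.0%. Scn1a, the channel of fast-spiking inhibitory neurons and Purkinje cells, averaged 22.8 ± 1.64 FPKM in cerebellum, 7.22 ± 0.983 in hippocampus, 8.14 ± 1.00 in amygdala and 11.7 ± 1.58 in anterior cortex (SD, n = 4, 5, 4 and 5). It was higher in cerebellum than in forebrain, with a log2 fold change of 1.23 ± 0.08 (SE, adjusted p = 4.23e-11). Scn3a, best known from the developing brain, was lower in cerebellum at a log2 fold change of -1.13 ± 0.13 (SE, adjusted p = 1.31e-07). Scn8a did not pass the test there, with a log2 fold change of -0.13 ± 0.10 (SE, adjusted p = 0.259).

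Scn10a and Scn11a, which encode the tetrodotoxin-resistant channels of pain-sensing neurons, had few counts and were highest in amygdala. Scn11a held 0, 0, 2 and 0 counts in the cerebellum sham libraries, 0, 1, 0, 0 and 0 in hippocampus, 24, 23, 17 and 15 in amygdala and 5, 0, 1, 11 and 5 in anterior cortex. Scn10a held 0, 4, 3 and 0 counts in cerebellum, 0, 1, 3, 0 and 2 in hippocampus, 14, 21, 13 and 21 in amygdala and 7, 1, 4, 0 and 1 in anterior cortex. In amygdala against anterior cortex both passed the test, Scn10a with a log2 fold change of 2.61 ± 0.69 (SE, adjusted p = 0.00712) and Scn11a of 1.97 ± 0.62 (SE, adjusted p = 0.0208). The call for Scn11a was lost without sham 12 or 13 of amygdala or sham 13 of anterior cortex, and with DESeq2 (adjusted p = 0.051). Both were also called lower in hippocampus than in amygdala, with an adjusted p of 0.000776 for Scn10a and 4.79e-05 for Scn11a, and Scn11a lower in hippocampus than in anterior cortex (adjusted p = 0.00435). No fold is given where the hippocampus holds so few counts. Both genes passed the filter on low counts only because of their amygdala libraries. They were thus tested because amygdala was high, and their calls add no independent support for that order. The 3 sensory ganglion markers summed to 6.86 to 8.10 CPM in sham amygdala, against 7.42 to 9.43 CPM in sham anterior cortex. Scn4a, the skeletal muscle channel, was higher in hippocampus than in anterior cortex at a log2 fold change of 1.69 ± 0.21 (SE, adjusted p = 1.39e-06) and than in amygdala at a log2 fold change of 1.05 ± 0.22 (SE, adjusted p = 0.000766), from a mean of 0.880 ± 0.159 FPKM in hippocampus, 0.444 ± 0.110 in amygdala and 0.252 ± 0.0664 in anterior cortex.

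Of the sodium channel beta genes, Scn3b was highest in hippocampus, while Scn2b and Scn4b were highest in cerebellum. Scn3b (ENSRNOG00000057221, chr8:44136496-44159010, plus strand, as deposited for a build the sources used here do not name) encodes a subunit that shifts the gating of sodium channels. It had 38.4, 30.8, 40.8 and 34.5 CPM in the cerebellum sham libraries, 878.5, 914, 843, 835 and 879.6 in hippocampus, 298, 321, 299 and 238 in amygdala and 187, 178, 155, 210.2 and 149.6 in anterior cortex. No 2 of these regions overlapped, and its log2 fold change was -3.29 ± 0.10 (SE, adjusted p = 2.87e-16) in cerebellum against forebrain, 2.31 ± 0.10 (SE, adjusted p = 4.3e-13) in hippocampus against anterior cortex and 1.59 ± 0.10 (SE, adjusted p = 4.2e-10) in hippocampus against amygdala.

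Scn4b, whose product supplies the blocking particle of resurgent sodium current in Purkinje cells, averaged 31.7 ± 4.27 FPKM in cerebellum, 10.02 ± 1.14 in hippocampus, 3.99 ± 0.523 in amygdala and 19.1 ± 3.05 in anterior cortex. It was higher in cerebellum than in forebrain at a log2 fold change of 1.66 ± 0.09 (SE, adjusted p = 1.05e-12). In amygdala it was lower than in anterior cortex at a log2 fold change of -2.42 ± 0.12 (SE, adjusted p = 2.03e-10), and in hippocampus lower than in anterior cortex at a log2 fold change of -1.03 ± 0.11 (SE, adjusted p = 1.55e-07) but higher than in amygdala at a log2 fold change of 1.39 ± 0.12 (SE, adjusted p = 2.84e-08). The 4 markers of striatal neurons, another known site of Scn4b, summed to 227 to 268 CPM in sham cerebellum, 103 to 132 in hippocampus, 139 to 282 in amygdala and 234 to 340.0 in anterior cortex. The sums of cerebellum and anterior cortex overlapped, so these markers do not tell those regions apart. The part of striatal neurons in the Scn4b differences was not tested. Scn2b, a disulfide-linked beta subunit gene, averaged 223 ± 7.19 FPKM in cerebellum, 115 ± 11.6 in hippocampus, 85.4 ± 14.04 in amygdala and 58.0 ± 9.90 in anterior cortex, and it was higher in cerebellum than in forebrain at a log2 fold change of 1.29 ± 0.08 (SE, adjusted p = 1.79e-11).

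In the Cav1 family both neuronal pores kept a similar balance in all 4 regions. Cacna1d, the low-threshold L-type pore, gave 57.2% of the summed FPKM of the 4 genes in cerebellum, 59.5% in hippocampus, 58.7% in amygdala and 60.2% in anterior cortex. Nearly all the rest came from Cacna1c, the L-type pore of most neurons and of heart. In cerebellum both were lower than the mean of the 3 forebrain regions, Cacna1d at a log2 fold change of -0.52 ± 0.08 (SE, adjusted p = 1.34e-05) and Cacna1c at a log2 fold change of -0.37 ± 0.08 (SE, adjusted p = 0.000414). Neither had a lower mean FPKM in cerebellum than in anterior cortex. In CPM, however, Cacna1d had 92.5, 96.95, 80.5 and 82.9 in the cerebellum sham libraries and 88.1, 101.8, 97.6, 101.3 and 101.4 in anterior cortex. For this gene the order of both regions thus depends on the scaling. Cacna1s, the skeletal muscle pore, held 3, 1, 6 and 0 counts in the cerebellum sham libraries, 17, 6, 11, 10 and 5 in hippocampus, 8, 0, 12 and 9 in amygdala and 16, 24, 14, 16 and 24 in anterior cortex, and its log2 fold change in cerebellum against forebrain was -2.16 ± 0.64 (SE, adjusted p = 0.00571). Cacna1f, the pore of photoreceptor terminals, was lower in hippocampus than in anterior cortex at a log2 fold change of -2.50 ± 0.44 (SE, adjusted p = 9.79e-05) and than in amygdala at a log2 fold change of -1.69 ± 0.47 (SE, adjusted p = 0.00822), at levels of at most 0.4905 FPKM in any sham library.

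In the Cav2 family, whose pores trigger transmitter release, the balance was tilted to Cacna1a in cerebellum. Cacna1a, the P/Q-type pore that carries most calcium current of Purkinje cells, made up 71.6% of the summed FPKM of the 3 genes in cerebellum, 44.3% in hippocampus, 30.9% in amygdala and 44.3% in anterior cortex. It had 900.4, 761, 953 and 820.3 CPM in the cerebellum sham libraries, 497, 384, 408.5, 501 and 426 in hippocampus, 267, 243, 227 and 259 in amygdala and 268, 337, 296, 329.9 and 293 in anterior cortex. All cerebellum libraries lay above all forebrain libraries, with a log2 fold change of 1.41 ± 0.07 (SE, adjusted p = 3.1e-13). Cacna1b, the N-type pore, and Cacna1e, the R-type pore, were lower in cerebellum than the forebrain mean, at a log2 fold change of -0.62 ± 0.07 (SE, adjusted p = 1.39e-07) and -0.45 ± 0.13 (SE, adjusted p = 0.00403). Cacna1e averaged 23.4 ± 1.52 FPKM in cerebellum, 38.5 ± 9.74 in hippocampus, 34.7 ± 2.44 in amygdala and 18.3 ± 2.49 in anterior cortex, so that its mean FPKM in cerebellum lay above that in anterior cortex. In CPM the sham libraries of both regions overlapped, at 129.2 to 145.8 in cerebellum and 109.7 to 147.1 in anterior cortex.

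Both Cav3 members, which encode pores that open near the resting potential and shape burst firing, changed places between cerebellum and hippocampus. Cacna1g had 458, 447, 421 and 388 CPM in the cerebellum sham libraries, 99.2, 78.9, 102, 77.0 and 101 in hippocampus, 162.5, 145, 135.5 and 175 in amygdala and 122, 149.9, 149, 156 and 141 in anterior cortex. Cacna1h had 4.83, 5.10, 2.96 and 4.28 CPM in cerebellum, 338, 295, 302, 316 and 302 in hippocampus, 147, 131, 121 and 162 in amygdala and 112, 109, 101.5, 100.4 and 104 in anterior cortex. Cacna1g was thus highest and Cacna1h lowest in cerebellum, with log2 fold changes against forebrain of 1.76 ± 0.07 (SE, adjusted p = 2.44e-14) and -5.27 ± 0.12 (SE, adjusted p = 8.32e-19). Cacna1g gave 99.1% of their summed FPKM in cerebellum and 23.8% in hippocampus. In hippocampus Cacna1h stood 1.56 ± 0.08 (SE, adjusted p = 1.57e-11) above anterior cortex and 1.15 ± 0.09 (SE, adjusted p = 6.21e-09) above amygdala on the log2 scale. Tpsg1 overlaps Cacna1h (ENSRNOG00000033893, chr10:14730941-14788617, minus strand) on the opposite strand and averaged at most 40.8 counts per library in a region, and whether counting used strand is not stated. Outside the members, Cacna1i averaged 25.8 ± 3.96 FPKM in cerebellum, 25.3 ± 2.70 in hippocampus, 23.3 ± 1.68 in amygdala and 29.4 ± 3.22 in anterior cortex of sham rats.

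**Figure D3:**
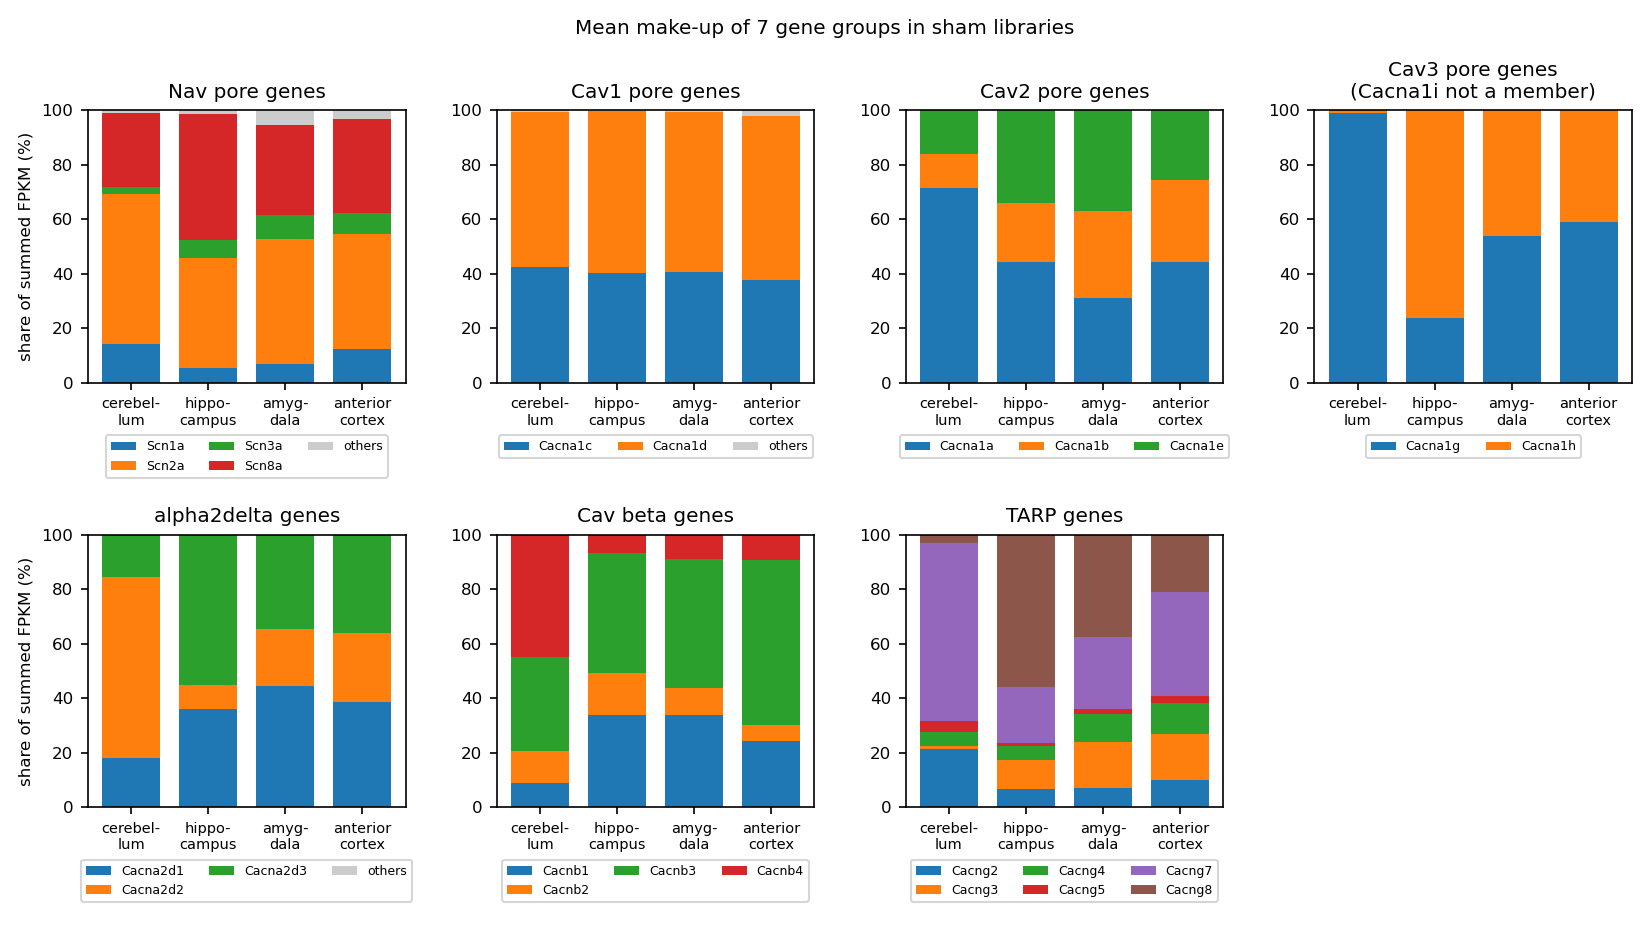
Mean make-up of 7 gene groups in sham libraries of the 4 regions, as the share (%) of the summed FPKM of the group taken by each member, with 4 libraries for cerebellum and amygdala and 5 for hippocampus and anterior cortex. Members drawn as others include all below 2% in all regions. The leading member of the Nav pore, Cav2, Cav3, alpha2delta, Cav beta and TARP groups differs between cerebellum and at least 1 forebrain region. The Cav3 group holds Cacna1g and Cacna1h only, without Cacna1i.

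The leading alpha2delta gene differed between regions. Cacna2d1 and Cacna2d2 encode the binding sites of gabapentin and pregabalin, and loss of Cacna2d2 causes ataxia in mice. Cacna2d2 (ENSRNOG00000015835, chr8:116154736-116284985, plus strand), the first of the promoters printed above, had 219.7, 191, 231 and 212 CPM in the cerebellum sham libraries, 30.3, 29.8, 31.9, 28.8 and 35.0 in hippocampus, 70.2, 47.2, 67.3 and 65.2 in amygdala and 75.6, 61.5, 70.1, 69.8 and 78.4 in anterior cortex. All cerebellum libraries lay above the forebrain ones and all hippocampus libraries below the others, with a log2 fold change of 2.05 ± 0.07 (SE, adjusted p = 1.98e-15) in cerebellum against forebrain, -1.19 ± 0.09 (SE, adjusted p = 3.38e-09) in hippocampus against anterior cortex and -1.004 ± 0.10 (SE, adjusted p = 1.36e-07) in hippocampus against amygdala. Cacna2d2 made up 66.4% of the group's summed FPKM in cerebellum, Cacna2d3 55.1% in hippocampus and Cacna2d1 44.3% in amygdala. In anterior cortex Cacna2d1 led Cacna2d3 by 38.5% to 35.6%, an order that turned when the deposited gene length was used. Cacna2d3 and Cacna2d1 were lower in cerebellum than in forebrain, at a log2 fold change of -1.36 ± 0.14 (SE, adjusted p = 2.43e-08) and -1.08 ± 0.11 (SE, adjusted p = 4.01e-08). Cacna2d4, known from retina, overlaps Lrtm2 on the opposite strand, a gene with a mean of 421 to 974 counts per library by region, so its few counts are uncertain.

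The intracellular beta genes, which set the surface density and inactivation of Cav1 and Cav2 channels, differed most for Cacnb1. It had 36.2, 39.8, 39.9 and 37.8 CPM in the cerebellum sham libraries, 200.3, 186, 194, 184 and 195 in hippocampus, 199, 167, 172 and 189 in amygdala and 153, 155, 141, 185 and 169 in anterior cortex. The cerebellum libraries all lay below the forebrain ones, and the log2 fold change was -2.21 ± 0.07 (SE, adjusted p = 2.25e-16). Cacnb4, whose loss underlies the lethargic mouse with ataxia and seizures, went the other way at a log2 fold change of 2.01 ± 0.10 (SE, adjusted p = 3.11e-13), and it averaged 76.8 ± 2.36 FPKM in cerebellum, 13.8 ± 3.03 in hippocampus, 17.8 ± 3.16 in amygdala and 20.9 ± 1.53 in anterior cortex. It led the group in cerebellum with 44.7% of the summed FPKM, whereas Cacnb3 led in hippocampus with 44.0%, in amygdala with 47.4% and in anterior cortex with 60.4%. Cacnb2, the main beta gene of heart, was highest in hippocampus, 1.21 ± 0.07 (SE, adjusted p = 4.71e-11) above anterior cortex on the log2 scale.

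Among the gamma genes, Cacng8, Cacng3 and Cacng4 were lower and Cacng2, Cacng5 and Cacng7 higher in cerebellum. Cacng8, the TARP of hippocampal AMPA receptors (ENSRNOG00000057848, chr1:64330106-64350338, minus strand), had 8.23, 6.96, 8.79 and 7.11 CPM in the cerebellum sham libraries, 305, 254, 254, 238 and 247 in hippocampus, 137, 124, 106 and 111.5 in amygdala and 71.0, 73.7, 72.3, 85.1 and 80.2 in anterior cortex. Its regions did not overlap, and the log2 fold change was -4.10 ± 0.10 (SE, adjusted p = 5.34e-18) in cerebellum against forebrain, 1.77 ± 0.08 (SE, adjusted p = 1.74e-12) in hippocampus against anterior cortex and 1.12 ± 0.09 (SE, adjusted p = 5.43e-09) in hippocampus against amygdala. Cacng3, another TARP of forebrain synapses, was lower in cerebellum at a log2 fold change of -4.08 ± 0.10 (SE, adjusted p = 3.96e-18) and Cacng4 at a log2 fold change of -1.25 ± 0.10 (SE, adjusted p = 6.72e-10). Cacng2 (stargazin), which is mutated in the ataxic stargazer mouse, averaged 48.9 ± 2.29 FPKM in cerebellum, 24.1 ± 2.52 in hippocampus, 17.8 ± 1.09 in amygdala and 25.9 ± 1.87 in anterior cortex, with a log2 fold change of 0.99 ± 0.06 (SE, adjusted p = 4.69e-12) in cerebellum. Cacng7 led the TARPs in cerebellum with 65.7% of their summed FPKM, and Cacng8 in hippocampus with 55.8%. Of the muscle-type pair, Cacng6 held 4, 8, 3 and 15 counts in the cerebellum sham libraries, 93, 47, 63, 35 and 50 in hippocampus, 35, 42, 34 and 11 in amygdala and 25, 35, 11, 18 and 11 in anterior cortex. It was lower in cerebellum at a log2 fold change of -2.16 ± 0.40 (SE, adjusted p = 8.86e-05) and higher in hippocampus than in anterior cortex at a log2 fold change of 1.37 ± 0.37 (SE, adjusted p = 0.0041), and Cacng1 was too low to test. The skeletal muscle markers (3 of 3) summed to at most 25.7 CPM in any sham library.

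Genes whose products anchor or regulate these channels were read from 5 lists, chosen, like the members, with earlier results of these data known. They hold 28 genes of the tables, of which 27 were tested. In sham cerebellum against forebrain 24 were called, 11 higher and 13 lower, beside 69.9% of all genes (34.8% higher and 35.1% lower). The 4 of smallest p were all lower: Fgf13, a cytoplasmic partner of sodium channels, at a log2 fold change of -3.20 ± 0.08 (SE, adjusted p = 5.97e-18), Rimbp2, which ties calcium channels to release sites, at a log2 fold change of -3.62 ± 0.10 (SE, adjusted p = 1.58e-17), Cbarp, an inhibitor of calcium channel beta subunit function, at a log2 fold change of -1.70 ± 0.07 (SE, adjusted p = 2.31e-14), and Cachd1, an alpha2delta-like protein, at a log2 fold change of -1.18 ± 0.08 (SE, adjusted p = 2.61e-11). In hippocampus against anterior cortex 23 were called, 14 higher and 9 lower, beside 51% of all genes (24.7% higher and 26.3% lower), among them Rem2, a small GTPase that inhibits calcium channels, at a log2 fold change of 3.25 ± 0.26 (SE, adjusted p = 2.89e-09), and Stac2, an adaptor that slows their inactivation, at a log2 fold change of -3.21 ± 0.15 (SE, adjusted p = 1.3e-12).

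Blast against sham, 6 weeks on, gave no called member in any region. In cerebellum 33 members entered edgeR's quasi-likelihood F test and 0 passed an adjusted p under 0.05, as did 0% of all genes, and DESeq2's Wald test called none of the 33 either. At an unadjusted p under 0.05 there were 5 members, beside 6.82% of all genes, and all 5 were higher after blast. They were Cacna1a, Cacna1b and Cacna1e, the 3 Cav2 pores, with Cacna1c and Scn4a. Over the members 25 lay above 0 and 8 below, with a median log2 fold change of 0.06, beside 50% of all genes above 0 and a median of 0.

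Cacna1c had 88.9, 81.2, 81.8, 78.7 and 73.8 CPM in blast libraries, against 68.0, 71.1, 65.7 and 78.4 CPM in sham libraries, the numbers being 1, 2, 5, 6 and 9 and then 10, 13, 16 and 18. All blast libraries lay above the sham mean, but sham 18 lay within the blast range, and the log2 fold change was 0.19 ± 0.06 (SE, adjusted p = 0.645) with an unadjusted p of 0.0111. In the authors' deposited table the adjusted p of Cacna1c in cerebellum was 0.306. Cacna1b had 162, 153, 140.5, 148 and 146 CPM in blast libraries, against 139.6, 129, 143 and 137 CPM in sham libraries. Cacna1e had 176, 175, 162.5, 168 and 158 CPM in blast libraries, against 154, 160.4, 158 and 140.0 CPM in sham libraries, and Cacna1a had 1106, 1228, 928, 1001 and 1043 CPM in blast libraries, against 970.4, 839, 1029 and 889 CPM in sham libraries. The groups overlapped for each of the 3 Cav2 genes, with log2 fold changes of 0.13 ± 0.05 (SE, adjusted p = 0.689) for Cacna1b, 0.13 ± 0.05 (SE, adjusted p = 0.689) for Cacna1e and 0.19 ± 0.08 (SE, adjusted p = 0.722) for Cacna1a and unadjusted p-values of 0.0206, 0.0194 and 0.0446.

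Scn4a was the 1 member of 33 whose groups did not overlap in cerebellum, beside 2.21% of all genes tested. It had 3.13, 4.25, 3.83, 3.52 and 3.65 CPM in blast libraries, against 2.79, 2.99, 2.91 and 2.43 CPM in sham libraries, and the log2 fold change was 0.40 ± 0.15 (SE, adjusted p = 0.691) with an unadjusted p of 0.0243. Its sham level was 0.399 ± 0.0380 FPKM (SD, n = 4), so this difference rests on a weakly expressed gene. On the lower side stood Cacng7 at a log2 fold change of -0.12 ± 0.06 (SE, adjusted p = 0.74) and Cacng8 at a log2 fold change of -0.17 ± 0.13 (SE, adjusted p = 0.812). The choroid plexus markers (6 of 6) summed to 5.04 to 1820.0 CPM in blast cerebellum and 6.97 to 2675 CPM in sham cerebellum. With those markers as a covariate 21 members lay above 0, and with the trend on gene length removed 2 members had an unadjusted p under 0.05. Without sham 18 of cerebellum 5 members lay below 0 and 2 had an unadjusted p under 0.05.

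**Figure D4:**
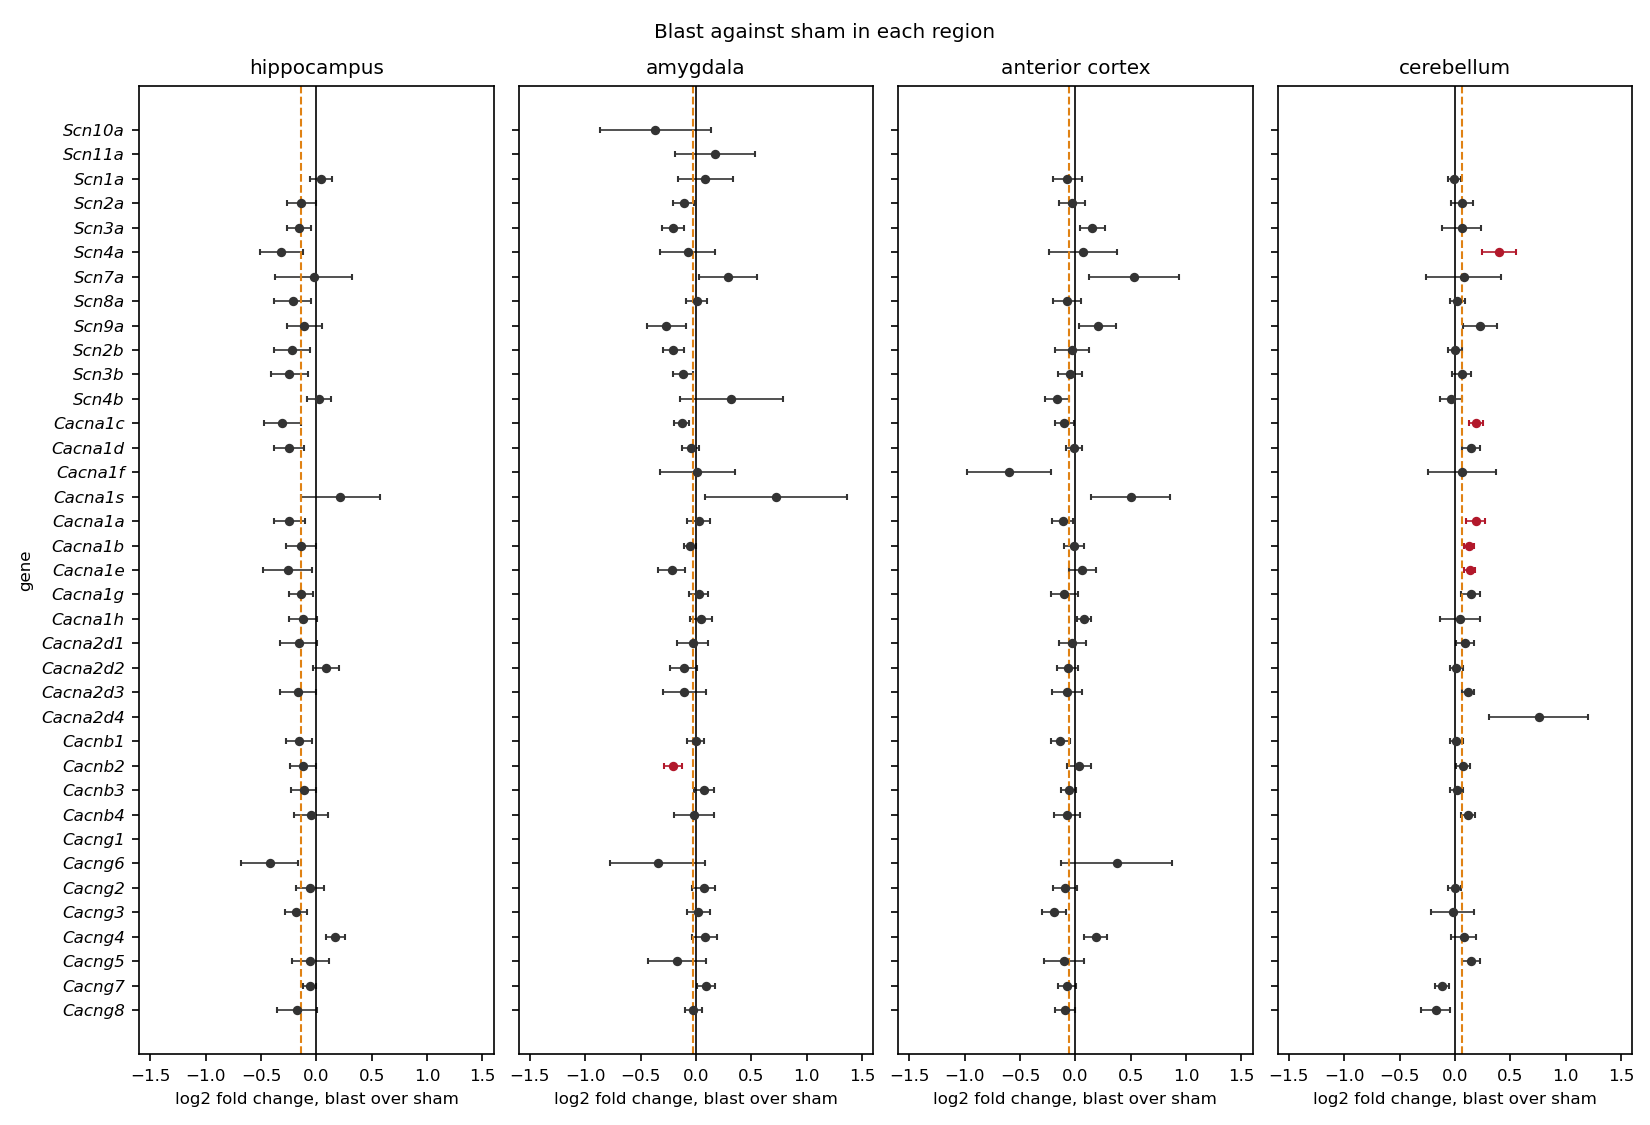
Log2 fold change of blast over sham for 37 of the channel genes where tested, by region, with whiskers of 1 standard error. Red points had an unadjusted p under 0.05, no point passed the adjusted threshold, and the dashed orange line is the median of all members tested. The points lie mostly left of 0 in hippocampus and right of 0 in cerebellum.

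In hippocampus 34 members were tested and 0 were called by edgeR, as were 0% of all genes, and 0 had an unadjusted p under 0.05, beside 5.24% of all genes. DESeq2's Wald test also called 0. Of the 34, 28 lay below 0 and 6 above, with a median of -0.14, beside 50.6% of all genes above 0 and a median of 0.002. Without blast 6, which stood apart, 35 were tested and 29 lay below 0, but the median was -0.05. With the choroid plexus markers (5 of 6 in this table) as a covariate 24 lay below 0 and the median was -0.03. Those markers summed to 3.80 to 7938 CPM in blast hippocampus, with the highest sum in blast 6, and to 8.62 to 490.0 CPM in sham hippocampus. The neuron markers (5 of 5) summed to 4190.0 to 5791 CPM in blast and 5372 to 5969 CPM in sham. For all 34 members the groups overlapped, beside 0.847% of all genes whose groups did not.

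Cacna1d had 162, 121, 150, 103 and 153.5 CPM in blast libraries, against 176.5, 124, 159, 184 and 176 CPM in sham libraries, the numbers being 1, 2, 5, 6 and 9 and then 10, 12, 13, 16 and 18. Blast 6 was lowest among blast libraries, sham 12 lowest among sham libraries, and the log2 fold change was -0.25 ± 0.14 (SE, adjusted p = 0.816), or -0.16 without blast 6. Cacna1c had 92.8, 91.1, 95.3, 54.2 and 113 CPM in blast libraries, against 125, 83.2, 112, 124 and 109.7 CPM in sham libraries, with the same pair of low libraries and a log2 fold change of -0.31 ± 0.17 (SE, adjusted p = 0.816), or -0.17 without blast 6. Cacng3 stood at a log2 fold change of -0.18 ± 0.10 (SE, adjusted p = 0.816), or -0.10 without blast 6. On the higher side Cacng4, a TARP, had 80.7, 85.3, 80.8, 98.3 and 68.9 CPM in blast libraries, against 72.5, 76.2, 67.8, 73.4 and 77.7 CPM in sham libraries, with blast 6 highest and blast 9 within the sham range, and its log2 fold change was 0.17 ± 0.09 (SE, adjusted p = 0.816), or 0.10 without blast 6. Cacna2d2 had 32.2, 31.4, 32.5, 42.5 and 25.8 CPM in blast libraries, against 30.1, 29.3, 31.8, 28.6 and 34.9 CPM in sham libraries. Its log2 fold change of 0.09 ± 0.12 (SE, adjusted p = 0.863) became -0.02 without blast 6.

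**Figure D5:**
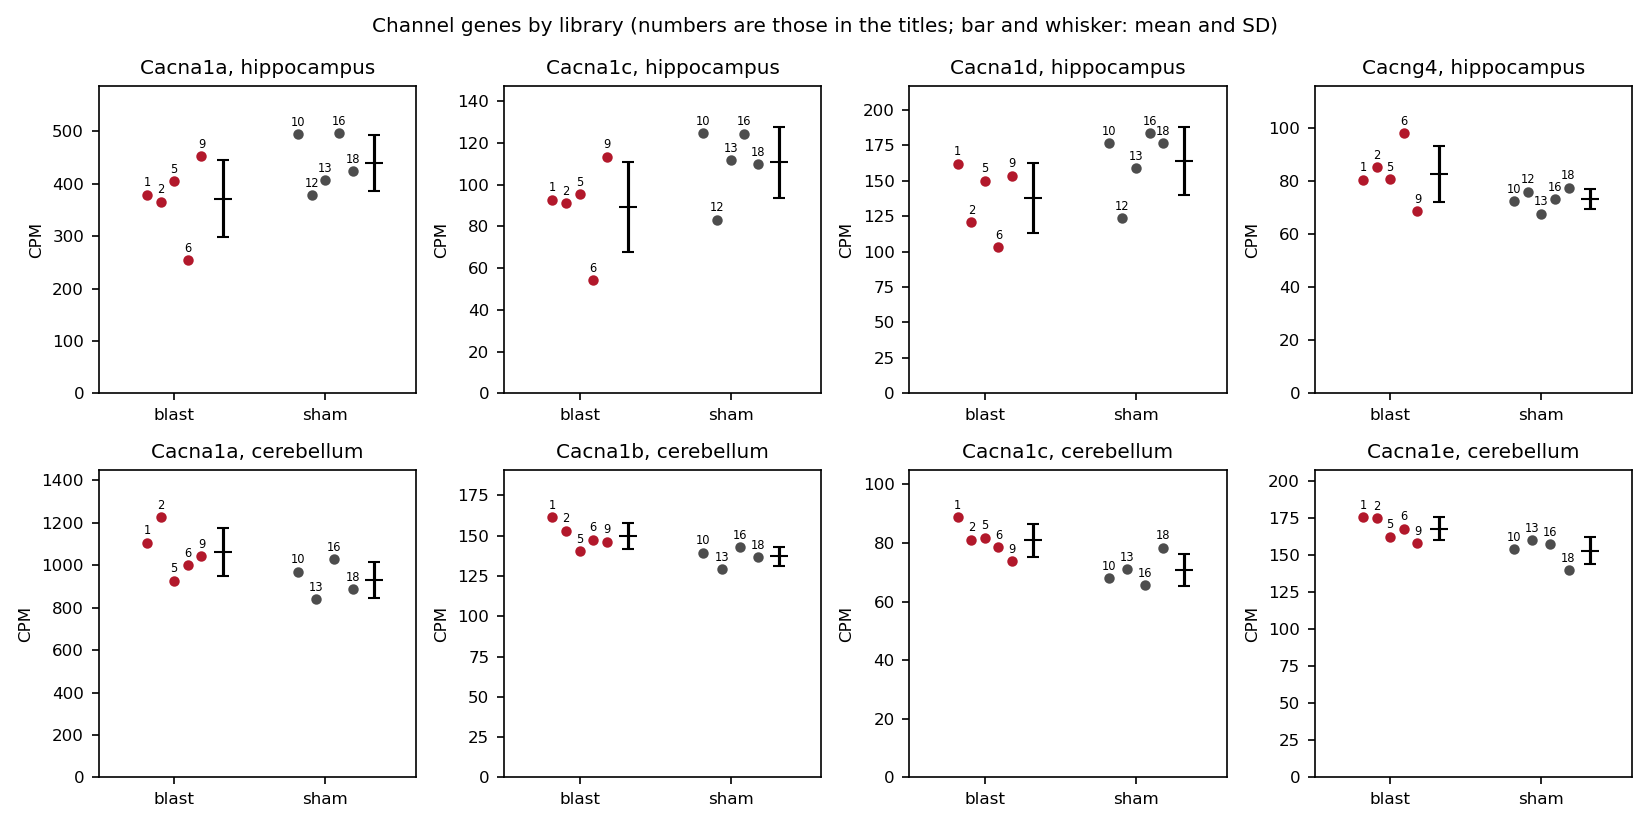
CPM of 4 channel genes in hippocampus (top) and 4 in cerebellum (bottom), 1 point per library with its number, blast left in red and sham right in grey, with the mean and SD beside each group. In hippocampus blast 6 lies lowest for Cacna1a, Cacna1c and Cacna1d and highest for Cacng4, and in every panel the blast and sham points overlap.

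In amygdala 37 members were tested and 0 were called by edgeR (0% of all genes) or by DESeq2's Wald test, with 21 below 0, 16 above and a median of -0.02, beside 51% of all genes above 0. The 1 member with an unadjusted p under 0.05, beside 5.22% of all genes, was Cacnb2. It had 36.4, 40.9, 31.0, 36.5 and 33.4 CPM in blast libraries, against 43.0, 40.8, 39.2 and 41.9 CPM in sham libraries, and the log2 fold change was -0.21 ± 0.08 (SE, adjusted p = 0.901) with an unadjusted p of 0.0237. All blast libraries lay below the sham mean, and the groups overlapped, as for all 37 members, beside 1.71% of all genes whose groups did not. Scn2b at a log2 fold change of -0.20 ± 0.10 (SE, adjusted p = 0.901) and Scn3a at a log2 fold change of -0.21 ± 0.10 (SE, adjusted p = 0.901) followed on the lower side. On the higher side Cacna1s and Scn7a, both with few counts, stood at a log2 fold change of 0.72 ± 0.64 (SE, adjusted p = 0.918) and 0.29 ± 0.26 (SE, adjusted p = 0.918), and without blast 6 that of Cacna1s was 0.37. Without blast 6, 26 members lay below 0 and 11 above, the median was -0.07 and 1 had an unadjusted p under 0.05.

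Blast 6 of amygdala also stood apart for Scn4b, which was lowest in amygdala among the sham regions. Scn4b had 12.2, 19.5, 8.06, 55.2 and 11.4 CPM in blast libraries, against 17.9, 19.3, 14.2 and 16.8 CPM in sham libraries, the numbers being 1, 2, 5, 6 and 9 and then 12, 13, 16 and 18, so that blast 6 was the highest library. The log2 fold change of Scn4b was 0.32 ± 0.46 (SE, adjusted p = 0.938), and -0.42 (adjusted p = 0.754) without blast 6. The oligodendrocyte markers (4 of 4) summed to 6259 CPM in this library, and to 2761 to 3562 CPM in the sham libraries of amygdala.

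In anterior cortex, with 3 blast libraries, 35 members were tested and 0 were called by edgeR or by DESeq2's Wald test, beside 0.00634% of all genes by edgeR. Of these, 24 lay below 0 and 11 above, with a median of -0.06, beside 50.2% of all genes above 0. The groups overlapped for all 35, beside 4.22% of all genes whose groups did not. At an unadjusted p under 0.05 there was 1 member, beside 5.82% of all genes. On the lower side Cacng3 had 84.8, 82.6 and 76.8 CPM in blast libraries, against 93.2, 93.8, 81.1, 115 and 81.3 CPM in sham libraries, the numbers being 1, 5 and 6 and then 10, 12, 13, 16 and 18. The groups overlapped, with a log2 fold change of -0.19 ± 0.11 (SE, adjusted p = 0.842), and Scn4b stood at a log2 fold change of -0.17 ± 0.11 (SE, adjusted p = 0.846). On the higher side stood Cacng4 at a log2 fold change of 0.18 ± 0.10 (SE, adjusted p = 0.842) and Cacna1s at a log2 fold change of 0.50 ± 0.36 (SE, adjusted p = 0.852). The balance of directions rested on blast 6, without which 13 of 36 members lay below 0 and the median was 0.04.

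The groups of members leaned one way or the other within a region, without a call. In cerebellum all 3 Cav1 genes tested, all 3 Cav2 genes, both Cav3 genes, all 4 alpha2delta genes and all 4 beta genes lay above 0, with medians of 0.14, 0.13, 0.09, 0.10 and 0.04, whereas 4 of 6 TARPs lay below 0. With each library left out in turn, all 3 Cav2 genes stayed above 0 in cerebellum, at medians of 0.116 to 0.155. In the Cav1, Cav3, alpha2delta and beta groups at least 1 gene lay below 0 without sham 16 (Cav1 and Cav3), blast 5 or blast 6 (Cav3), blast 2 or sham 13 (alpha2delta), or blast 2, blast 9, sham 10 or sham 18 (beta). Without sham 16 the Cav3 median was 0.017, and without blast 1 or sham 18 only 2 TARPs lay below 0. In hippocampus all 3 Cav2 genes, both Cav3 genes and all 4 beta genes lay below 0, with medians of -0.25, -0.13 and -0.12. Without blast 6 these 9 genes still lay below 0, but the medians were -0.134, -0.044 and -0.046, and 1 beta gene lay above 0 without blast 2, sham 16 or sham 18. In amygdala the 10 sodium channel pore genes split into 4 above and 6 below. Blast 6, which stood apart, had the highest blast CPM there for Scn1a (121.2, the other blast libraries 38.67 to 69.62). The same held for Scn8a (300.1, the others 225.8 to 266.8), so the make-up of this split leans on that library.

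A test of whether the blast effect differed between regions called 0 of 38 members by edgeR's quasi-likelihood F test, beside 0.0117% of all genes. At an unadjusted p under 0.05 there were 2 members, beside 5.36% of all genes. The unadjusted p was 0.00943 for Cacna2d4 (adjusted p = 0.788) and 0.0404 for Cacna1c (adjusted p = 0.909). Without the 2 libraries that stood apart, their p-values were 0.0119 and 0.0261. Both values of Cacna2d4 rest on few counts, which its overlap with Lrtm2 makes uncertain. Over all 36 libraries, with region as a term and the number as a random block, limma-voom called 0 of 38 members, beside 0.0584% of all genes. In that fit 32 members lay below 0 and 6 above, with a median of -0.04, beside 52.3% of all genes above 0. Without both libraries that stood apart 25 lay below 0, and without all libraries numbered 18 or all numbered 6, 24 did. The 1 member with an unadjusted p under 0.05, beside 8.62% of all genes, was Cacng4, at a log2 fold change of 0.14 ± 0.06 (SE, adjusted p = 0.53) with an unadjusted p of 0.0251.

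None of the 27 partner genes was called after blast in any region or over the regions by these tests. Unadjusted p-values under 0.05 were found for 3 in cerebellum (6.82% of all genes), 3 in anterior cortex (5.82%), 2 over the regions (8.62%) and 0 in hippocampus (5.24%) and amygdala (5.22%). In cerebellum, Nedd4l, a ubiquitin ligase that removes sodium channels from the membrane, stood at a log2 fold change of 0.18 ± 0.05 (SE, adjusted p = 0.531) with an unadjusted p of 0.00219, Stac2 at a log2 fold change of -0.25 ± 0.07 (SE, adjusted p = 0.599), and Ank3, the ankyrin that holds sodium channels at the initial segment, at a log2 fold change of 0.13 ± 0.05 (SE, adjusted p = 0.721). In anterior cortex, Cachd1 stood at a log2 fold change of 0.33 ± 0.11 (SE, adjusted p = 0.842) and Cabp1, a calcium-binding regulator of Cav channels, at a log2 fold change of -0.28 ± 0.10 (SE, adjusted p = 0.842).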

How the data were processed

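RNA sequencing of 36 rat brain libraries was deposited as 1 table per region. The read counts per gene and library that the authors deposited are whole numbers, per the file headers, and were the input of all tests. The FPKM values deposited by the authors equal the count scaled to the table's total count and per kilobase, with the deposited gene length for 78.3% to 78.9% of genes and a shorter length for the rest, so levels of different genes depend on that length. The log2 fold changes and the p-values and adjusted p-values deposited by the authors were used only where named. The submitters' processing notes name CASAVA, with no version. The sources used here do not state the aligner, counter, strand setting, genome build or authors' test. A further 36 columns of per-library values, normalized by the authors, were not used.

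Within each region, genes passing filterByExpr were scaled by TMM and tested with edgeR's quasi-likelihood F test (R 4.3.3, edgeR 4.0.16), blast against sham, with Benjamini-Hochberg adjustment over all genes tested and a threshold of 0.05. Sham levels were compared in 1 fit of the 18 sham libraries over genes in all 4 tables. Differences of the blast effect between regions were tested over 36 libraries by edgeR's F test on the interaction of region and treatment, and the regions were pooled with limma-voom (limma 3.58.1) with the title number as a random block (correlation 0.028). DESeq2 1.42.0 was an alternative. CPM of members are counts scaled to TMM library sizes, within a region for blast comparisons and over the sham libraries otherwise, and marker sums are scaled to library totals. Counts of 15426786 to 23460322 per library limit precision for the weakly expressed members.

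All members could be named by their sham level. In blast comparisons with fewer than 4 calls the 3 members of smallest p in each direction were named, and in sham comparisons those called with an absolute log2 fold change of at least 1, with values per library for the largest in each group. Other members with values were chosen after these were seen, and results of 2 members are not reported here. At most 4 partner genes per comparison were named by smallest p. Members, lists and tests were chosen with earlier results of these data known. The code was tested on simulated counts. Promoter sequences come from RefSeq on GRCr8, and no coordinates were converted.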

Additional observations from a re-analysis of the deposited data

Results flagged for a closer look

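Among 231 groups of 4 or 5 libraries with a tested and reported member, 14 held 1 library whose CPM lay far from the rest by Dixon's criterion, which chance meets in about 1 of 20 groups. Blast 6 of hippocampus gave 4 of these, with Cacna1h at 189.0 CPM (the other blast libraries 288.9 to 320.3), Cacnb1 at 114.8 (178.8 to 186.3), Cacnb3 at 149.8 (218.3 to 238.3) and Cacng8 at 121.7 (240.7 to 274.1). Blast 6 of amygdala gave another 3, with Scn4b at 55.25 CPM (8.059 to 19.47), Cacng2 at 69.26 (46.26 to 51.27) and Cacna1d at 141.2 (119.4 to 125.2). These are the libraries that also stood apart over all genes.

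The other 7 were scattered. In hippocampus, sham 12 had Cacna1e at 140.7 CPM (the other sham libraries 260.0 to 307.5) and Scn9a at 4.905 (5.52 to 5.641), and sham 10 had Cacng8 at 303.3 (236.3 to 253.3). Blast 5 of amygdala had Cacna1g at 188.5 CPM (150.5 to 159.5), and sham 18 of anterior cortex had Cacnb3 at 318.7 (340.2 to 348.4). In cerebellum, blast 1 had Cacna1d at 124.3 CPM (97.26 to 105.1) and sham 18 had Scn1a at 207.7 (177.8 to 180.9).

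For 3 members all blast libraries lay above the sham mean in cerebellum and all below it in another region, which was amygdala for Cacna1c and hippocampus for Cacna1d and Scn4a. By edgeR's F test on the interaction of region and treatment the unadjusted p was 0.0404 for Cacna1c (adjusted p = 0.909), 0.0742 for Cacna1d (adjusted p = 0.924) and 0.104 for Scn4a (adjusted p = 0.931), so none passed the adjusted threshold.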

How the results depend on the processing

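No member was called after blast in any region, over the regions or for the difference between regions, with DESeq2 size factors, no filter on low counts, DESeq2's test (not run for the pooled fit), the marker covariate or length trend (in the regions), or any library or number left out. Directions of weak differences did change. With 1 library left out, the log2 fold change of Cacna2d2 in hippocampus ranged from -0.0198 to 0.1713, the lowest without blast 6, and with the choroid plexus covariate it was -0.0028. The members below 0 in anterior cortex numbered 13 to 27 with 1 library left out, the lowest without blast 6, and in cerebellum 5 to 11, the lowest without sham 18, and 13 with no filter. The sham region calls stayed within 1.5 times under all alternatives, at 30 to 33 for cerebellum, 28 to 32 for hippocampus against anterior cortex, 19 to 26 for amygdala against anterior cortex and 23 to 26 for hippocampus against amygdala with 1 library left out. Another scaling moved the median of all genes by at most -0.0122 (log2). By the deposited gene length instead of FPKM, shares of the leading member became, in hippocampus, 48.93% for Scn8a, 54.43% for Cacna1d, 48.79% for Cacna1a, 59.64% for Cacna2d3 and 48.16% for Cacnb3. In amygdala they became 44.12% for Scn2a, 53.56% for Cacna1d, 53.08% for Cacna1g (without Cacna1i in its group), 41.01% for Cacna2d1 and 51.54% for Cacnb3. In anterior cortex they became 55.02% for Cacna1d, 49.14% for Cacna1a and 63.97% for Cacnb3, and in cerebellum 52.11% for Cacna1d and 75.2% for Cacna1a.

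Blast and sham share no numbers, so no pairing within a region exists. Between regions, sham libraries of 1 number correlated at -0.309 to 0.405 (median 0.1665, 21 of 24 pairs above 0.1), against a median of -0.054 for different numbers (9 of 97 above 0.1). Blast libraries of 1 number correlated at -0.315 to 0.314 (median 0.082, 10 of 24 above 0.1), against a median of -0.016 for different numbers (20 of 96 above 0.1). Same-numbered sham libraries thus deviated together more often, but not in every pair, and the labels tie no number to an animal. Among the main tests, only the pooled fit therefore linked libraries by number, as a random block. With the number as a replicate block the calls were 32 for cerebellum, 31 for hippocampus against anterior cortex, 25 for amygdala against anterior cortex, 25 for hippocampus against amygdala and 37 for any difference, and 0 for the difference of the blast effect. Without the block in the pooled fit 0 were called and 32 lay below 0. Leaving out the libraries that stood apart in the pooled and between-region fits was chosen after seeing the data. Members with few counts are limited by depth.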
